A study of Mus musculus with 9 samples.

Results

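The genes described here are the Creb3 family of transcription factors that are anchored in the membrane of the endoplasmic reticulum (ER), together with the proteases that release them. They were chosen by symbol from the 56941 gene identifiers of the count table and number 7. The factors are Creb3, Creb3l1, Creb3l2, Creb3l3 and Creb3l4, and the proteases are Mbtps1 and Mbtps2. The family was picked because of the level of Creb3l3 in the comparison of ketogenic with low fat diet, so the levels of all 7 genes in that comparison are given as a description, with no p-value. All 7 were among the 18548 genes that passed the filter on low counts. Creb3l4 passed it through its low fat and high fat libraries alone.

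RNA was sequenced from islets of Langerhans, which hold the hormone-making cells of the pancreas, from male C57BL/6J mice of wild-type genotype (WT). The mice entered the study aged 15 weeks and then ate 1 of 3 diets over 9 months. The low fat diet (LFD, 3 libraries) held 10% fat, the high fat diet (HFD, 2 libraries) 60% fat and the ketogenic diet (KD, 4 libraries) 89.9% fat. Library totals ran from 15513502 to 26588390 counts. The labels do not say whether each library came from a separate mouse, so p-values measure only the spread between these libraries.

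Factors of this family are made as precursors whose tail crosses the ER membrane, and they travel to the Golgi when the ER or its lipids are disturbed. There Mbtps1 (S1P) makes a cut on the lumenal side and Mbtps2 (S2P) makes a cut within the membrane, which frees the DNA-binding part for the nucleus. Creb3l3, also called CREBH, is best known from liver and small intestine, where it acts on acute-phase and lipid genes and is induced by fasting. The same proteases release Atf6 and the sterol regulators Srebf1 and Srebf2. Transcript counts measure the message for the precursor and do not report its cleavage.

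Creb3l3 was the member that differed most between diets and Creb3l2 the most abundant, so the 250 bases before their annotated start sites are shown. The promoter table from RefSeq (build GRCm38.p6) matched Creb3, Creb3l2, Creb3l3, Creb3l4, Mbtps1 and Mbtps2, and listed 2 start sites for Creb3l3. The Creb3l3 windows lie at chr10:81092592-81092841 and chr10:81098873-81099122, and the Creb3l2 window at chr6:37442149-37442398, all on the minus strand and written 5′ to 3′ with the start site just after the last base. Capitals mark TGACG, the core that CREB-type factors bind, and AGGTCA, the core bound by nuclear receptors, searched on both strands.
Creb3l3, downstream start site: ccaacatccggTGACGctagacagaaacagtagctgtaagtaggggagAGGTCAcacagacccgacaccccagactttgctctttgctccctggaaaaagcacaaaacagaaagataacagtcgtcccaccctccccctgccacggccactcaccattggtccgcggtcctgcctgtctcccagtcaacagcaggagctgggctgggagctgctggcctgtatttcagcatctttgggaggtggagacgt
Creb3l3, upstream start site: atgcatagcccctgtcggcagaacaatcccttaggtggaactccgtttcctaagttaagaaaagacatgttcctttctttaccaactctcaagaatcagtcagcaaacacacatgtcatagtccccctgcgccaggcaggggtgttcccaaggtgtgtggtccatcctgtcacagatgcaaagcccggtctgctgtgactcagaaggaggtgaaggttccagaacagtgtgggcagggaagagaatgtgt
Creb3l2: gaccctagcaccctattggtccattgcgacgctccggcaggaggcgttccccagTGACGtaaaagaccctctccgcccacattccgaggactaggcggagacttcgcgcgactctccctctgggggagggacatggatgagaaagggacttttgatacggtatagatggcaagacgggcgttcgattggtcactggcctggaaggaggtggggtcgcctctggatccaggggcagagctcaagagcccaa
The window of the downstream Creb3l3 start site holds TGACG at position -239 and AGGTCA at position -202, counted from the start site, and that of the upstream start site holds neither. The Creb3l2 window holds TGACG at position -196. Among 32851 RefSeq windows of the same length, 17.8% held TGACG or its reverse complement and 14% held AGGTCA or its reverse complement. The full palindrome TGACGTCA, found in 1.55% of all windows, was in none of the windows matched to members. These matches are letters in a window and say nothing about binding.

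Islet hormone genes were read in every library, and the 5 beta cell markers took between 1.62% and 12.6% of the counts. Transcripts of acinar cells, the enzyme-secreting cells around islets, varied widely. The 15 acinar markers held 33.6%, 23.6% and 14.3% of counts in LFD libraries 1 to 3, 18% and 10.7% in HFD, and 57.0%, 42.2%, 53.3% and 19.3% in KD libraries 1 to 4. Levels below are TMM-scaled CPM, counts put on a common library size by a scaling that sets aside the genes most different between libraries, with factors from 0.54 to 1.5. Scaling by library totals lowers the median log2 fold change of all genes to -0.59 for KD against LFD and to -0.81 for KD against HFD, and raises it to 0.20 for HFD against LFD, so a change is also given on that scale where its direction depends on it. Markers of lymphocytes were highest in LFD: the summed level of 4 B lymphocyte markers was 16.6 to 69.5 CPM in LFD, 2.15 to 2.56 in HFD and 0.802 to 1.87 in KD, and 3 T lymphocyte markers summed to 1.13 to 8.78 CPM in LFD, 0.335 to 0.500 in HFD and 0 to 0.312 in KD. In such bulk samples fewer cells of a type and less RNA per cell cannot be told apart.

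**Figure D1:**
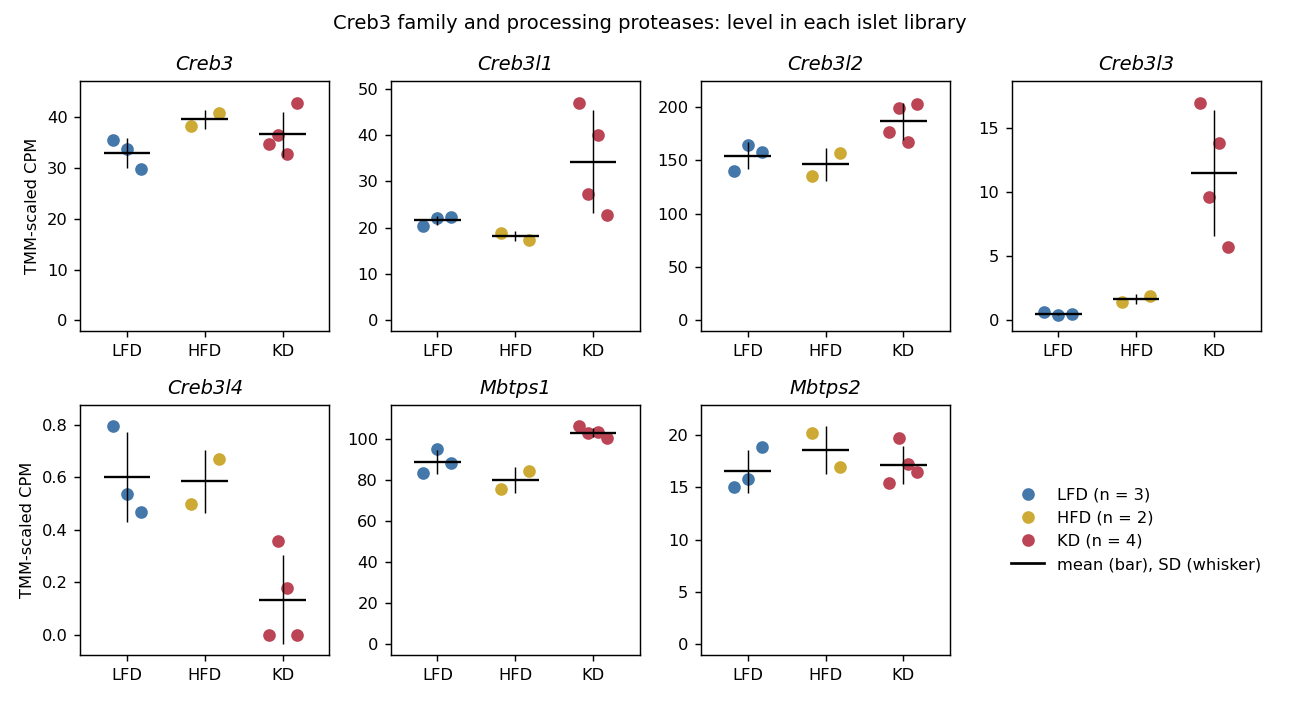
TMM-scaled CPM (vertical axes) of the 7 genes in each of the 9 islet libraries, grouped by diet; points are libraries, bars are means and whiskers are 1 SD. Creb3l3 lies below 1 CPM in the 3 LFD libraries and between 5.69 and 16.96 CPM in the 4 KD libraries, while Mbtps2 overlaps across all diets.

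Creb3l3 (ENSMUSG00000035041), the factor of liver and intestine, was close to absent in LFD islets and present in every KD library. LFD libraries 1 to 3 held 10, 9 and 10 counts, or 0.613, 0.403 and 0.469 CPM. HFD libraries 1 and 2 held 28 and 46 counts, or 1.401 and 1.927 CPM. KD libraries 1 to 4 held 218, 216, 155 and 127 counts, or 16.96, 9.62, 13.80 and 5.69 CPM. The diets did not overlap, with LFD lowest, HFD between and KD highest. The fitted log2 fold change of KD over LFD was 4.53 (SE 0.43), which is 23.1-fold. Pooling the counts of each diet and dividing them by the summed TMM-scaled library sizes gave a ratio of 21.5. The order of the diets did not rest on the scaling: as CPM on library totals Creb3l3 was 0.500 to 0.645 in LFD, 1.72 to 2.89 in HFD and 6.65 to 9.18 in KD.

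The HFD islets also held more Creb3l3 message than LFD islets, but with 2 HFD libraries this difference did not pass edgeR's quasi-likelihood test. The log2 fold change of HFD over LFD was 1.76 (SE 0.48, Benjamini-Hochberg adjusted p = 0.293). The ratio of pooled counts per TMM-scaled library size was 3.49 (exact 95% interval 2.24 to 5.56, counting error only). KD exceeded HFD by 2.77 (SE 0.44, adjusted p = 0.124 with edgeR), with a ratio of 6.16 by the same pooling and scaling (4.85 to 7.94). In KD against HFD, 0.124 was the smallest edgeR adjusted p of any gene. It was shared by genes with a larger unadjusted p, such as Creb3l1. DESeq2, which called 8.18% of all genes there, gave Creb3l3 an adjusted p of 1.83e-06. These comparisons share libraries with the one in which Creb3l3 was chosen, so none of these values is independent support for it.

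The level of Creb3l3 relative to other genes moved with these counts. Per kilobase of exon (CPM per kb, exon lengths from GENCODE M21), it averaged 0.164 in LFD, 0.552 in HFD and 3.82 in KD. Among 18047 tested genes with a length, that placed it at percentile 5.01 in LFD, 21.6 in HFD and 62.4 in KD. Its SD of log2 CPM over the 9 libraries was 2.02, larger than that of 99.5% of the genes tested, whereas the median gene had 0.40. Creb3l3 was chosen for a difference between these libraries, so these ranks only describe it.

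Within KD, Creb3l3 followed the acinar share. The KD libraries ranked 1, 3, 2, 4 by Creb3l3 CPM and by acinar share alike. As CPM on library totals the order was the same and the range narrower, 6.65 to 9.18. Between diets, KD library 4, with 19.3% acinar counts, held 5.69 CPM of Creb3l3, and LFD library 1, with 33.6%, held 0.613. With the acinar score as a covariate the log2 fold change of KD over LFD was 3.76, and the part of acinar RNA in it was not tested further. With a lymphocyte score as a covariate it was 3.80, in a setting in which edgeR called 0 of all 18548 genes, Creb3l3 included. The summed lymphocyte levels did not overlap between LFD and the other diets, so diet and lymphocyte transcripts cannot be told apart in that comparison.

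**Figure D2:**
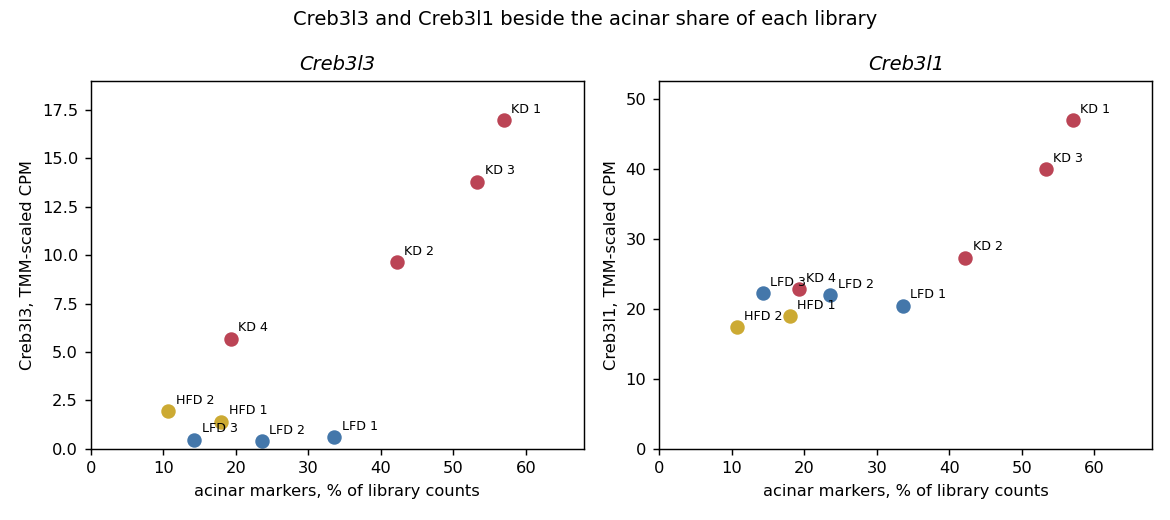
TMM-scaled CPM of Creb3l3 (left) and Creb3l1 (right) against the percentage of library counts held by 15 acinar markers, 1 point for each of the 9 libraries, coloured by diet. Creb3l3 is higher in KD library 4 (5.69 CPM at 19.3% acinar counts) than in any LFD or HFD library, whereas Creb3l1 in that library (22.8 CPM) sits beside the LFD libraries.

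The summed markers of the organs in which Creb3l3 is best known were lower in KD than in LFD. The 7 hepatocyte markers summed to 113 to 149 CPM in LFD, 34.9 to 101 in HFD and 19.1 to 80.7 in KD. Most of it came from albumin (Alb), which averaged 104.1 CPM in LFD, 57.4 in HFD and 43.4 in KD. All 7 had negative log2 fold changes for KD against LFD and 1, Fgb, a fibrinogen chain, was called lower, against 3.14% of all genes. The 5 enterocyte markers summed to 12.8 to 20.8 CPM in LFD and 4.84 to 7 in KD, nearly all of it from the glucose carrier Slc5a1. The other 4 were near 0. Sis and Alpi had 0 counts in every HFD and KD library, and Fabp2 had at most 1 count in each of them. Lct had 1 to 3 counts in KD libraries and 0 to 2 in LFD. The part of liver or gut RNA in the level of Creb3l3 was not tested.

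By a fixed measure of likeness, the root mean square difference of mean-centred log2 CPM over the 9 libraries, the genes closest to Creb3l3 were Fbp2 (0.77), Msx3 (0.80), Slc25a34 (0.84), Hecw1 (1.06) and Adcy1 (1.08), against a median of 1.96 over all genes tested. Fbp2, a fructose bisphosphatase of muscle, averaged 0.578 CPM in LFD, 1.02 in HFD and 6.15 in KD. Adcy1, an adenylate cyclase, averaged 3.75 CPM in LFD, 4.51 in HFD and 20.3 in KD. Msx3, Slc25a34 and Hecw1 were at or below 1.71 CPM in every library. Of the other family members Creb3l1 was the closest, at 1.58, with 4.16% of tested genes closer still.

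Creb3l1 (ENSMUSG00000027230), also called OASIS and known for driving collagen and secretory genes, was higher in KD on the TMM scale and level on the scale of library totals. Its CPM was 20.5, 22 and 22.3 in LFD libraries 1 to 3, 18.96 and 17.4 in HFD, and 47.0, 27.4, 40.0 and 22.8 in KD libraries 1 to 4. On that scale every KD library was above every other library, though KD library 4 by little. As CPM on library totals the same libraries read 21.5, 27.3 and 28.0, then 23.2 and 26.1, then 25.4, 23.1, 24.7 and 26.6, and the diets overlapped. The log2 fold change of KD over LFD was 0.66 (SE 0.22) with TMM and -0.036 with library totals. The KD libraries ranked by TMM-scaled CPM of Creb3l1 as they did by acinar share. On library totals they did not, and KD library 4, with the lowest acinar share, was highest. With the acinar score as a covariate the log2 fold change of KD over LFD was 0.21. For KD against HFD the log2 fold change without that score was 0.91 (SE 0.26, adjusted p = 0.124 with edgeR), and 0.017 with library totals. Leaving out KD library 4 raised it to 0.81 for KD against LFD and to 1.07 for KD against HFD. The latter then passed the threshold used for all genes (adjusted p = 0.0209 with edgeR). In that fit 9.84% of all genes passed it for KD against HFD, against 0% with all libraries. The part of acinar RNA in these values was not tested further.

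Ratios of counts within a library do not depend on either scaling. Creb3l3 stood at 1.83 to 2.99 counts per 100 of Creb3l1 in LFD, 7.39 to 11.1 in HFD and 25.0 to 36.1 in KD. By contrast Creb3l1 per 100 counts of Creb3l2 was 13.4 to 14.6 in LFD, 11.1 to 14 in HFD and 11.2 to 26.6 in KD. The former ratio separated the diets, and the latter overlapped between all of them.

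Creb3l2 (ENSMUSG00000038648), also called BBF2H7 and known for its control of the ER export coat in cartilage, was the most abundant member. It held 73.4% ± 2.16 (SD, n = 3) of the counts of the 5 factors in LFD, 70.8% ± 1.73 (n = 2) in HFD and 69.2% ± 4.95 (n = 4) in KD. Its CPM was 140, 165 and 158 in LFD libraries 1 to 3, 135 and 157 in HFD, and 177, 199, 167 and 203 in KD libraries 1 to 4. All KD libraries were above all others on this scale, by a small margin. The log2 fold change was 0.27 (SE 0.13) for KD against LFD and 0.35 (SE 0.15, adjusted p = 0.201 with edgeR) for KD against HFD, but -0.28 and -0.41 with library totals, so its direction depended on the scaling.

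Creb3 (ENSMUSG00000028466), also called Luman, the founding member and a partner of the host cell factor Hcfc1, was nearly even across the diets on the TMM scale. It ranged from 29.8 to 35.6 CPM in LFD, from 38.3 to 40.9 in HFD and from 32.7 to 42.9 in KD. The KD range reached across both others, and HFD was above LFD without overlap (log2 fold change 0.26, adjusted p = 0.576 with edgeR). KD against LFD gave 0.15 (SE 0.13), and -0.37 with library totals. As CPM on library totals Creb3 was less even, with means of 38.8 ± 2.54 (SD) in LFD, 54.2 ± 10.3 in HFD and 30 ± 14.4 in KD. In GENCODE M21 the exons of Creb3 share 360 bp with Tln1 and 133 bp with Gba2 on the opposite strand. Whether counting used the strand is not given in the sources used here, and reads from those stretches cannot be told apart.

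Creb3l4 (ENSMUSG00000027938), known from prostate and testis, was at the limit of detection. It had 13, 12 and 10 counts in LFD libraries 1 to 3, 10 and 16 in HFD, and 0, 8, 2 and 0 in KD libraries 1 to 4. The KD libraries were below all others. A count of 0, taken as fewer than 3 counts, allows up to 0.233 CPM in KD library 1 and 0.134 CPM in KD library 4. Pooled counts were 35 in LFD, 26 in HFD and 10 in KD. Divided by the summed TMM-scaled library sizes, they were 4.02 times higher in LFD than in KD and 4.08 times higher in HFD than in KD. Since the LFD and HFD libraries alone carried it past the filter, these differences are given without a test. The log2 fold change was -2.04 (SE 0.89) for KD against LFD and -2.01 (SE 0.96) for KD against HFD. Without KD library 2, which held 8 of the 10 KD counts, they were -3.51 and -3.49. HFD against LFD gave -0.024 (SE 0.93, adjusted p = 0.995 with edgeR).

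Among the 5 factors together, Creb3l3 supplied 0.238% ± 0.0656 (SD, n = 3) of counts in LFD, 0.802% ± 0.116 (n = 2) in HFD and 4.30% ± 1.85 (n = 4) in KD. Its share in single libraries ran from 2.07% (95% Wilson interval 1.75% to 2.46%) to 6.16% (5.42% to 7%) in KD, with no LFD or HFD library above 0.884%. The family summed to 210.0 CPM ± 11.9 in LFD, 206.2 ± 16.6 in HFD and 269.1 ± 10.2 in KD. As CPM on library totals the sums were 249 ± 35.9, 283 ± 62.8 and 214 ± 79.7, so the KD sum was the highest on one scale and the lowest on the other.

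**Figure D3:**
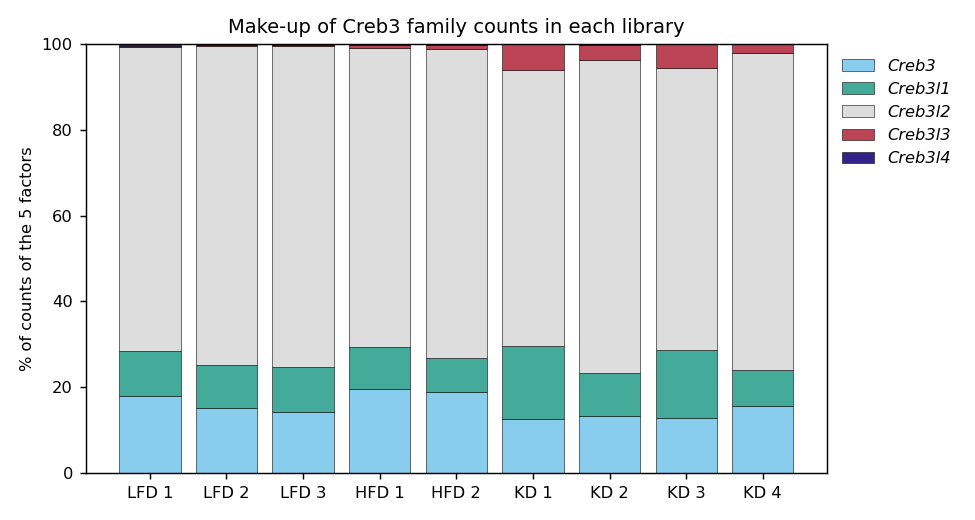
Percentage of the counts of the 5 Creb3 factors held by each factor in each of the 9 libraries. Creb3l2 is the largest segment everywhere, and the Creb3l3 segment grows from at most 0.31% in LFD to between 2.07% and 6.16% in KD.

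On the TMM scale the proteases varied little over the 9 libraries. Their SDs of log2 CPM were 0.17 for Mbtps1 and 0.15 for Mbtps2, close to the 0.16 of the factor Creb3. As CPM on library totals Mbtps1 ran from 57.5 to 127 and Mbtps2 from 8.34 to 25.4. Mbtps1 (ENSMUSG00000031835), the enzyme that makes the lumenal cut, read 83.4, 95.2 and 88.6 CPM in LFD libraries 1 to 3, 75.8 and 84.7 in HFD, and 106, 103, 103.5 and 100.6 in KD libraries 1 to 4. All KD libraries were above all others on the TMM scale. The log2 fold change was 0.21 (SE 0.11) for KD against LFD and 0.36 (SE 0.13, adjusted p = 0.145 with edgeR) for KD against HFD, but -0.37 and -0.43 with library totals. Per 100 counts of Creb3l2 it stood at 56.1 to 59.5 in LFD, 54.0 to 56.0 in HFD and 49.6 to 61.9 in KD, and the KD range covered the others.

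Mbtps2 (ENSMUSG00000046873), the enzyme that cuts within the membrane, overlapped between all diets on the TMM scale. Its range was 15.0 to 18.9 CPM in LFD, 16.9 to 20.2 in HFD and 15.4 to 19.7 in KD. As CPM on library totals HFD, at 24.7 and 25.4, was above LFD (15.8 to 23.7) and KD (8.34 to 19.2) without overlap. The log2 fold changes were 0.054 (SE 0.15) for KD against LFD, -0.52 with library totals, and 0.16 (SE 0.18, adjusted p = 0.767 with edgeR) for HFD against LFD. Its exons share 2867 bp with Yy2 on the same strand in GENCODE M21, and how reads from that stretch were assigned is not given in the sources used here.

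Per kilobase of exon the order in LFD was Creb3l2 (21.2 CPM per kb), Creb3 (13.9), Mbtps1 (8.45), Creb3l1 (8.30), Mbtps2 (1.64), Creb3l4 (0.358) and Creb3l3 (0.164). Only the neighbours Mbtps1 and Creb3l1 overlapped. HFD kept this order except that Creb3l3 (0.552) stood above Creb3l4 (0.349). In KD the order was Creb3l2 (25.6), Creb3 (15.5), Creb3l1 (13.2), Mbtps1 (9.81), Creb3l3 (3.82), Mbtps2 (1.70) and Creb3l4 (0.0796). There the libraries of Creb3 overlapped with those of Creb3l1, those of Creb3l1 with Mbtps1, and those of Creb3l3 with Mbtps2. Creb3l3 thus moved from the last place in LFD to the level of a protease in KD.

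**Figure D4:**
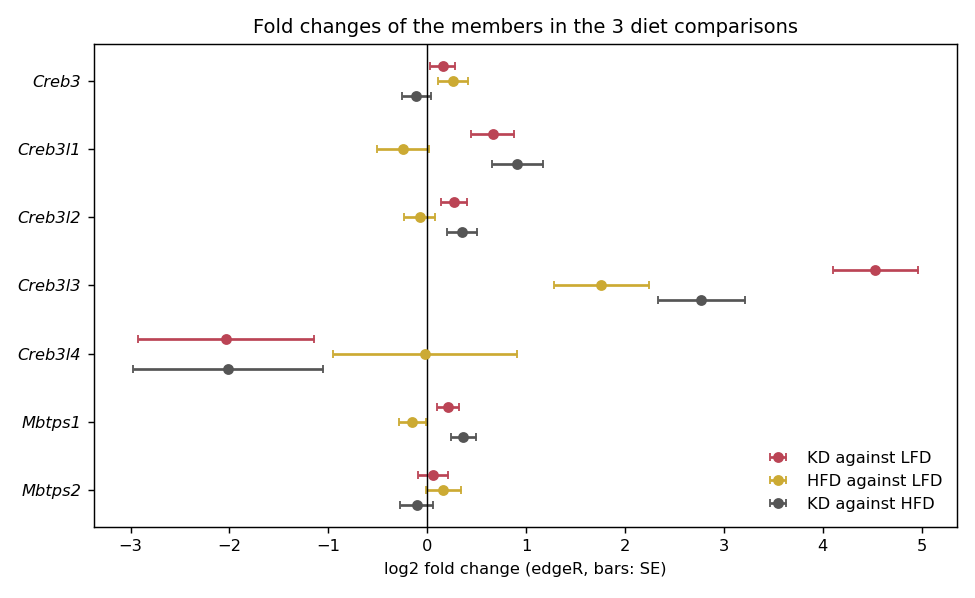
Log2 fold change (horizontal axis, edgeR with TMM scaling) of each of the 7 genes in the 3 diet comparisons, with bars of 1 SE. Creb3l3 lies at 4.53, 1.76 and 2.77 for KD against LFD, HFD against LFD and KD against HFD, and Mbtps2 lies between -0.11 and 0.16.

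Counted by the same rule as all genes, 1 of the 7 members, Creb3l3, had an adjusted p below 0.05 in KD against LFD, where 4.12% of the 18548 genes did (9.56% with DESeq2, which called the same member). The libraries of KD and LFD did not overlap for 5 of the 7, 4 higher and 1 lower, against 19.7% of all genes. Nothing is read from these counts, since the members were chosen with that comparison known. In HFD against LFD edgeR called 0 of 7 members and 0% of all genes, and 1 member had an unadjusted p below 0.05, against 9.99% of all genes. DESeq2 called 0 of 7 there and 1.44% of all genes. In KD against HFD edgeR called 0 of 7 and 0% of all genes, and 4 members had an unadjusted p below 0.05, against 22.7% of all genes. DESeq2 called 3 of 7 in KD against HFD, Creb3l1, Creb3l3 and Mbtps1, and 8.18% of all genes. The groups did not overlap for 3 of 7 members in HFD against LFD and for 5 of 7 in KD against HFD, against 27.5% and 33.9% of all genes. Nothing is read from the counts in these comparisons either, since they share libraries with the one in which Creb3l3 was chosen. Creb3l4, among the 5 in KD against HFD, passed the filter through its LFD and HFD libraries alone.

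The genes around the family were followed in 6 lists with 48 genes, of which 44 were tested. In KD against LFD edgeR called 3 of 44, which is 6.82% of them against 4.12% of all genes, and 15 had an unadjusted p below 0.05, as did 22.7% of all genes. Scap rose, and Crp and Creb5 fell. With library totals 6 were called, 0 higher and 6 lower, against 8.91% of all genes. In HFD against LFD edgeR called 0 of 44 and 0% of all genes. There 3 had an unadjusted p below 0.05, against 9.99% of all genes, and DESeq2 called 0, against 1.44%. In KD against HFD edgeR called 0 of 44 and 0% of all genes. There 20 had an unadjusted p below 0.05, against 22.7% of all genes, and DESeq2 called 13, against 8.18%.

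Among 9 other clients and escorts of the same proteases 1 was called in KD against LFD, where edgeR called 4.12% of all genes. On the TMM scale 8 had positive log2 fold changes, with a median of 0.35 against -0.020 over all genes. With library totals 0 of 9 were positive, with a median of -0.23 against -0.59 over all genes. Scap, which escorts the sterol regulators to the Golgi, read 55.4, 58.1 and 55.7 CPM in LFD libraries 1 to 3, 49.3 and 52.3 in HFD, and 107, 79.2, 91.2 and 68.9 in KD libraries 1 to 4. The diets did not overlap. It rose by 0.62 (SE 0.15, adjusted p = 0.0438 with edgeR) on the TMM scale and stood at -0.029 with library totals. The call held in 7 of 20 settings. It was lost with the acinar score as a covariate (0.39, adjusted p = 0.139) and without any single library other than KD library 4 (highest adjusted p = 0.156). Insig1, which retains that escort in the ER, was at 0.47 and Atf6, an ER stress sensor, at 0.40, with adjusted p of 0.135 and 0.120 in edgeR, and at -0.15 and -0.23 with library totals.

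The partners and regulators of the family gave 0 edgeR calls among 8 genes in KD against LFD. There 2 had an unadjusted p below 0.05, against 22.7% of all genes, and DESeq2 called 1, Sel1l, against 9.56%. Positive log2 fold changes numbered 6 of 8 with TMM and 1 of 8 with library totals. Ppara, the fasting-response receptor that works with Creb3l3 in liver, averaged 3.22 CPM ± 1.61 (SD, n = 3) in LFD, 1.63 ± 0.171 (n = 2) in HFD and 5.12 ± 2.38 (n = 4) in KD. On this scale KD overlapped with LFD but not with HFD. For KD against HFD its log2 fold change was 1.63 (SE 0.53, adjusted p = 0.132 with edgeR), or 0.69 with library totals. For KD against LFD it was 0.66 (SE 0.44), or -0.046 with library totals. Sel1l and Syvn1, which form a ubiquitin ligase complex of the ER, had log2 fold changes of 1.26 (SE 0.45) and 0.67 (SE 0.35), or 0.50 and -0.036 with library totals, and Crebrf, a negative regulator of Creb3, had -0.77 (SE 0.26). Libraries of 1 diet could differ widely. Sel1l read 2036, 1066, 2015 and 541 CPM on the TMM scale in KD libraries 1 to 4, in the order of their acinar share. On library totals KD library 3 was above KD library 1.

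Of 10 listed genes that Creb3l3 is known to drive in liver 7 were tested. In KD against LFD edgeR called 0 of them higher, and 0.981% of all genes. Of the 7, 6 had negative log2 fold changes for KD against LFD (7 of 7 with library totals). Crp, an acute-phase protein, read 11.71, 10.98 and 7.69 CPM in LFD libraries 1 to 3, 5.80 and 2.05 in HFD, and 3.50, 3.16, 4.36 and 2.15 in KD libraries 1 to 4. It fell by 1.64 (SE 0.35, adjusted p = 0.0279 with edgeR), with every KD library below every LFD library. Hepatocyte markers were lower in KD too, as given above, and their part in this was not tested. The call was lost without LFD library 1 or 2 or KD library 1, 2 or 3 (highest adjusted p = 0.106). Fgf21, a fasting hormone, averaged 15.2 CPM in LFD, 10.9 in HFD and 13.9 in KD, with overlap between all diets. The lipoprotein gene Apoa4 was at -1.97 (SE 0.997) and the pentraxin Apcs at -1.92 (SE 0.75), both from levels below 1 CPM on average. Apoc2 had 0 counts in every library, and Cidec and Hamp were too low to test.

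Targets ascribed to the other members gave 0 edgeR calls among 7 genes in KD against LFD. There 5 had an unadjusted p below 0.05, against 22.7% of all genes. DESeq2 called 2, Arf4 and Edem1, against 9.56% of all genes. The list had 4 positive values under TMM and 1 under library totals. Edem1 and Herpud1, which serve the removal of misfolded proteins, had log2 fold changes of 1.19 (SE 0.43) and 0.69 (SE 0.31), or 0.44 and -0.042 with library totals, and Col1a2, a collagen chain, had -0.67 (SE 0.28). In KD against HFD, Edem1 was at 1.73 and Herpud1 at 1.28, with adjusted p of 0.125 and 0.124 in edgeR. Edem1 ranked the KD libraries as their acinar share did, at 1053, 553, 852 and 270 CPM in libraries 1 to 4. Fibroblast markers, which accompany collagen genes, had a median log2 fold change of -1.17 over 5 genes for KD against LFD with 0 called.

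The core of the unfolded protein response gave 0 edgeR calls among 6 tested genes in each comparison. An unadjusted p below 0.05 was reached by 1, 1 and 3 for KD against LFD, HFD against LFD and KD against HFD. Over all genes the shares were 22.7%, 9.99% and 22.7%. DESeq2 called 0, 0 and 3, the last being Atf4, Eif2ak3 and Xbp1, against 9.56%, 1.44% and 8.18% of all genes. For KD against LFD the largest values were -0.54 (SE 0.23) for Ddit3, a stress-induced factor, 0.47 (SE 0.26) for Xbp1 and 0.43 (SE 0.24) for Eif2ak3, an ER stress kinase. With library totals Xbp1 was at -0.22 and Eif2ak3 at -0.27, and positive values went from 5 of 6 to 0 of 6. For HFD against LFD 6 of 6 were negative with TMM and 3 of 6 with library totals. For KD against HFD 6 of 6 were positive with TMM and 1 of 6 with library totals. Those comparisons share the HFD libraries. The chaperone Hspa5 averaged 979 CPM in LFD, 941 in HFD and 1172 in KD, with a log2 fold change of 0.26 (SE 0.20) for KD against LFD and -0.31 with library totals.

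Among 7 soluble relatives of the family that bind similar DNA, 1 was called in KD against LFD, where edgeR called 4.12% of all genes. In that comparison 5 values were negative with TMM and 7 with library totals. Creb5 read 8.34, 4.26 and 5.63 CPM in LFD libraries 1 to 3, 3.05 and 2.89 in HFD, and 2.18, 2.98, 1.25 and 2.06 in KD libraries 1 to 4. It fell by 1.49 (SE 0.32, adjusted p = 0.0295 with edgeR), and no KD library reached an LFD library. The call was lost without LFD library 1 or KD library 1, 2 or 3 (highest adjusted p = 0.127). Crem, an effector of cyclic AMP, was at -0.39 (SE 0.24) and Atf1 at 0.28 (SE 0.15), or -0.33 with library totals. Creb1, the best known of these factors, averaged 64.5 CPM in LFD, 71.2 in HFD and 53.2 in KD.

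**Figure D5:**
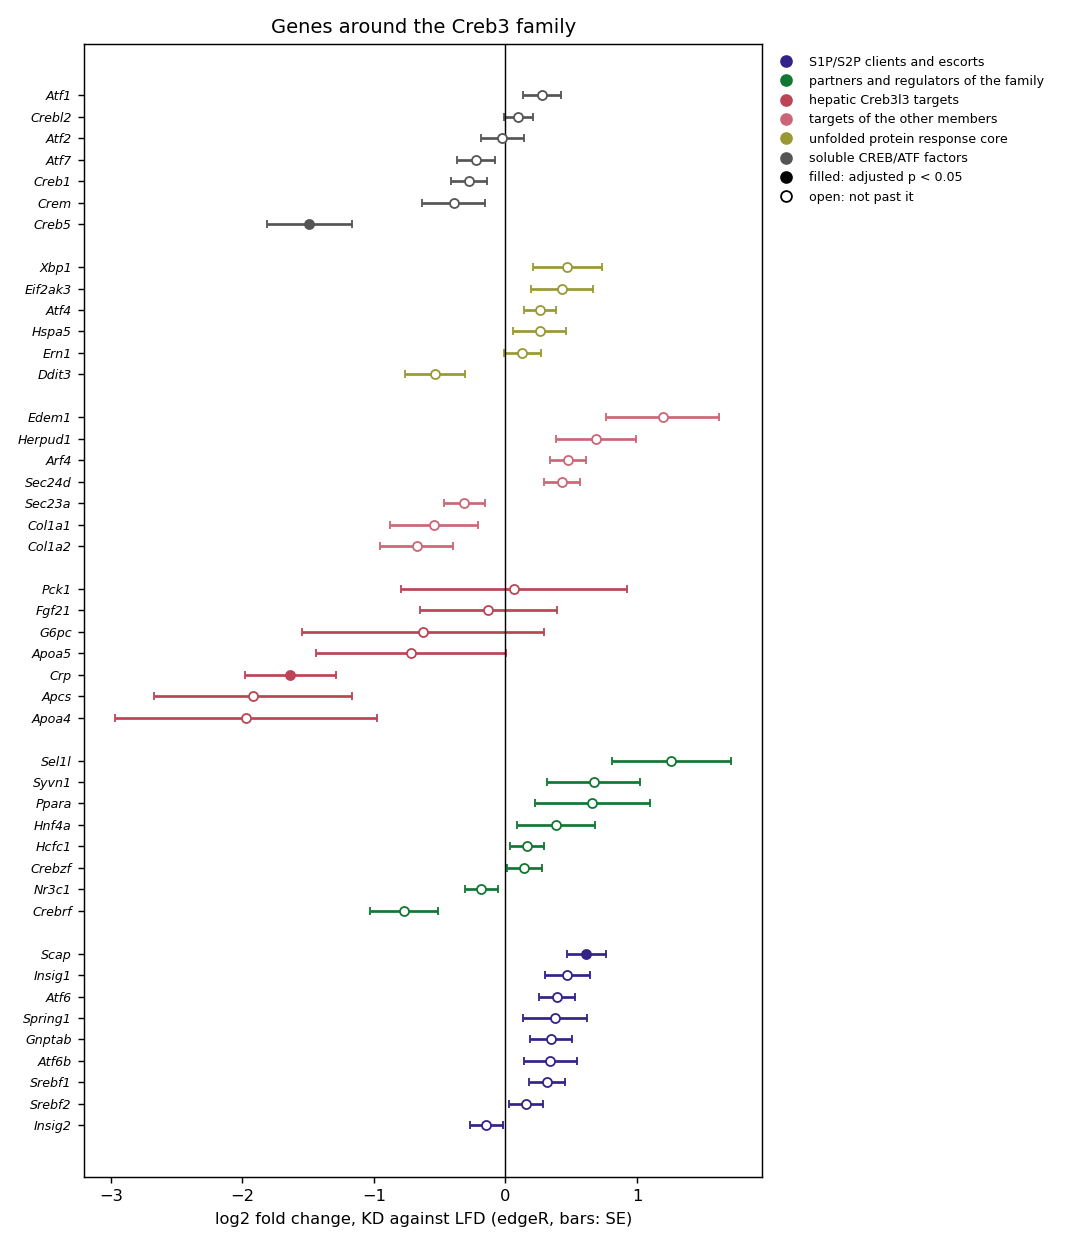
Log2 fold change for KD against LFD (horizontal axis, edgeR, bars of 1 SE) of the 44 tested genes around the Creb3 family, grouped and coloured by list. Filled points mark Scap, Crp and Creb5, the 3 genes with an adjusted p below 0.05, and all hepatic Creb3l3 targets but Pck1 lie to the left of 0.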

How the data were processed

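Polyadenylated RNA of the islets was sequenced with a directional kit, per the labels' protocols. The authors deposited raw counts per Ensembl gene identifier for 9 libraries. Per the submitters' processing notes, cutadapt 1.16, STAR 2.7.9a, featureCounts 1.6.3 and DESeq2 1.40.2 were used with build GRCm39. The annotation release and strand setting are not given in the sources used here. Library totals ran from 15513502 to 26588390 counts, and 51948 identifiers had a symbol in the reference.

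Diets were taken from the sample titles. Counts were fitted with edgeR 4.0.16 in R 4.3.3 (filterByExpr by diet, TMM, robust quasi-likelihood, a mean per diet over all 9 libraries), two-sided, with Benjamini-Hochberg adjustment over 18548 genes and a threshold of 0.05. Those genes held at least 99.86% of each library's counts. No libraries of 1 diet matched within sampling noise. The procedure was tested on simulated data.

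The members, gene lists and cell markers were chosen with earlier results of these data known. All members were named, as were list genes past the threshold (at most 5 a list), the 3 largest log2 fold changes of each list in KD against LFD, and the 5 genes most like Creb3l3. Other genes were named after their values were seen. Alternatives were DESeq2 1.42.0 size factors and its Wald test, TMM without acinar and hormone genes, no filter, a filter of 5 CPM in 3 libraries, only the diets compared, the replicate number as a block, acinar and lymphocyte scores (mean log2 CPM, prior count 2) as covariates, and each library left out. Library totals without TMM were added after seeing the data. The labels give no batches, and a batch cannot be told apart from diet here.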

Additional observations from a re-analysis of the deposited data

Results flagged for a closer look

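Among 51 genes of the family and its lists, 2 had 1 KD library far from the other 3, by Dixon's 95% critical ratio of 0.829 for 4 samples. Chance gives this in about 1 in 20 groups. Srebf1, a sterol-regulated client of the proteases, read 98.03 CPM in KD library 1 and 72.7 to 75.0 CPM in the others. Sec23a, a coat protein of ER export vesicles, read 40.88 CPM in KD library 3 and 35.2 to 36.0 CPM in the others.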

How the results depend on the processing

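The log2 fold change of Creb3l3 for KD against LFD, the comparison it was chosen on, ran from 3.76 to 4.76 over 20 settings, which is no support for it. With the lymphocyte score as a covariate 0 members, 0 pathway genes and 0 of all genes were called in that comparison.

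The number of members called for KD against LFD ranged from 1 to 2 over fits without 1 library, with 2 only without KD library 4. For KD against HFD it was 3 with DESeq2, 1 with library totals, 2 without a filter, and 0 to 2 over fits without 1 library, again with 2 only without KD library 4. Pathway genes called for KD against LFD were 6 with DESeq2, 6 with library totals and 0 to 7 over fits without 1 library, with 0 without KD library 1, 2 or 3 or LFD library 1, 1 without LFD library 2 and 7 without KD library 4. For KD against HFD they were 13 with DESeq2, 1 with library totals, 1 without a filter and 0 to 11 over fits without 1 library, with 11 without KD library 4. The share of all genes called moved too. For KD against LFD it was 9.56% with DESeq2, 8.91% with library totals, 0.822% without KD library 3 and 7.4% without KD library 4, and for KD against HFD 8.18%, 8.36%, 0% and 9.84% in the same settings and 1.02% without a filter. The causes of these changes were not tested.

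Deviations of LFD and KD libraries with the same replicate number correlated at 0.222, -0.016 and -0.003. Over all 7 pairs of libraries with the same number the range was -0.016 to 0.222, and over 19 pairs with different numbers -0.277 to 0.238. With so few libraries to a diet these values cannot decide whether the numbers pair the libraries. With the replicate number as a block, members called were 2 for KD against LFD, 1 for HFD against LFD and 2 for KD against HFD, and pathway genes called were 11 for KD against LFD and 11 for KD against HFD, where the block called 10.8%, 2.13% and 12.5% of all genes in these 3 comparisons.

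Directions turned for uncalled members. With library totals these were, for KD against LFD, Creb3 (-0.37), Creb3l1 (-0.036), Creb3l2 (-0.28), Mbtps1 (-0.37) and Mbtps2 (-0.52). For HFD against LFD they were Creb3l2 (0.13), Creb3l4 (0.21) and Mbtps1 (0.060), and for KD against HFD Creb3l2 (-0.41) and Mbtps1 (-0.43). With the lymphocyte score they were Creb3l2 (0.12), Creb3l4 (0.49) and Mbtps2 (-0.15) for HFD against LFD and Mbtps2 (-0.34) for KD against LFD. With the acinar score they were Creb3 (0.059) for KD against HFD and Creb3l4 (0.38) for HFD against LFD. The filter of 5 CPM turned Mbtps2 to -0.0017 for KD against LFD. Over fits without 1 library, Creb3l2 ran from -0.19 to 0.025 for HFD against LFD (turned without HFD library 1), Creb3l4 from -0.25 to 0.20 for HFD against LFD (0.16 without HFD library 1, 0.20 without LFD library 1), Mbtps2 from -0.22 to 0.029 for KD against HFD (turned without HFD library 1) and from -0.019 to 0.16 for KD against LFD (turned without KD library 2 or LFD library 1).

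HFD had 2 libraries, and Creb3l4 had at most 16 counts in any library, which limits both.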
